A study of Homo sapiens with 12 samples.

Results

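The 10 genes described here encode E-cadherin, its partner p120 catenin and the core of the desmosome, and they were measured in HT-29, a human colorectal cancer line of epithelial origin, and in LAD2, a human mast cell line. They are CDH1, CTNND1, DSP, DSG2, DSC2, JUP, PKP2, PKP3, PPL and EVPL, taken by gene symbol as 10 rows of a table of 58721 genes. RNA sequencing covered 4 groups at 12 hours: HT-29 alone, HT-29 that had been in direct coculture with LAD2, LAD2 alone, and LAD2 that had been in direct coculture with HT-29. Stocks of HT-29 were kept in McCoy 5A medium with serum and those of LAD2 in SP34 medium, and RNA came from a mini kit for HT-29 and a micro kit for LAD2, so kit and medium cannot be told apart from the line. No other agent or genetic change is given for any group, each line is a single established line, and the labels do not give the coculture medium or how the lines were parted before RNA was taken. The labels list 3 samples per group, but the 3 columns of LAD2 coculture hold identical counts in every gene and were counted as 1 library, which leaves 10 distinct libraries of 17229788 to 34142465 counts.

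E-cadherin joins neighbouring epithelial cells at adherens junctions, where p120 catenin holds it at the membrane and the catenins link it to actin. Desmosomes are the companion junction: desmogleins and desmocollins bind across the gap between cells, plakoglobin and the plakophilins gather them on the inside, and desmoplakin ties the plaque to keratin filaments. Loss of E-cadherin and of desmosomes is a textbook mark of epithelial-to-mesenchymal transition, the process named in the title of the study. Periplakin and envoplakin are relatives of desmoplakin that build the cornified envelope of skin and also join keratin networks to junctions.

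Promoter windows of 300 bases, from 250 before to 50 after a RefSeq start site on GRCh38.p14, were given for 4 of the members, DSG2, DSC2, JUP and DSP, with 2 start sites each for DSC2 and JUP. DSG2 and DSP are shown because their transcripts were absent from LAD2 alone, and JUP because both lines carried it, in the window that held the letters below. Capitals mark the E-box letters CACCTG or CAGGTG, which repressors of the SNAI and ZEB families are known to bind, read on both strands.
DSG2, chr18:31497927-31498226, plus strand: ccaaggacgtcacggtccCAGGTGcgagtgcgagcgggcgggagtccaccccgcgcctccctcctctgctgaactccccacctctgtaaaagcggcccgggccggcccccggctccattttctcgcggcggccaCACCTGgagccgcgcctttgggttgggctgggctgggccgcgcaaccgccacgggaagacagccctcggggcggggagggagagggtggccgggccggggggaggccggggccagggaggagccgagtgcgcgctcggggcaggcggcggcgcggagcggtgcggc
DSP, chr6:7541421-7541720, plus strand: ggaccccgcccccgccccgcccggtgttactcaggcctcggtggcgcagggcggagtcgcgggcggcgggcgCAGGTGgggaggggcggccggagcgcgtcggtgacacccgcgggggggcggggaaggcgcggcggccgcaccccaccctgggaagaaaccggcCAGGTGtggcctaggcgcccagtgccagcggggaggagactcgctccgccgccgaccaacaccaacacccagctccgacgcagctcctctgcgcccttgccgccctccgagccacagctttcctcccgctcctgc
JUP, chr17:41785927-41786226, minus strand: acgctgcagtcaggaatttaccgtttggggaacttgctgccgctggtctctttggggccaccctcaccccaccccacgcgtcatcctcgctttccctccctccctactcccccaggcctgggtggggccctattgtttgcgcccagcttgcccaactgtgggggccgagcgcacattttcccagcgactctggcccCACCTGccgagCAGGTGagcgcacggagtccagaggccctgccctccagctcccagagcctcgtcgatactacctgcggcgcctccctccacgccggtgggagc
The E-box letters stood at -232 and -116 from the start site in DSG2, at -178 and -85 in DSP, at -54 and -43 in the JUP window shown, and at -156 in 1 window of DSC2. They were in 4 of the 6 member windows and in 20.6% of 35116 promoter windows of this length. The member windows held 60.7% to 77.0% G and C, against a median of 58.7% over all windows, so that share is not matched for base composition. The letters AACCGG, read on both strands as AACCGG or CCGGTT and known as part of the site of the Grainyhead-like (GRHL) factors, were in the DSP window at -92 and in 7.23% of all windows. The full palindrome AACCGGTT was in 0 member windows and in 0.134% of all windows. Windows with E-box letters thus included JUP, which both lines expressed, and a match of letters says nothing about binding.

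The comparison of the lines alone gives the starting level of each junction gene. HT-29 carried all 10 genes, while LAD2 alone carried 3 of them, JUP, EVPL and CTNND1. E-cadherin, CDH1 (ENSG00000039068, GRCh38 chromosome 16, 68737225 to 68835548), was at 463, 455 and 455 CPM (the counts of a gene relative to the library total, the unit of level used throughout) in the HT-29 alone libraries and at 0 in all 3 LAD2 alone libraries, at least 9753-fold higher in HT-29 against a limit of 3 counts over the LAD2 group, which is 0.0469 CPM. The desmosomal cadherin DSG2 (ENSG00000046604, chromosome 18, 31498043 to 31549008), also at 0 counts in LAD2 alone, was at 287, 289 and 298 CPM in HT-29 and at least 6202-fold higher. Its partner cadherin DSC2 (ENSG00000134755, chromosome 18, 31058840 to 31102522) was at 69.2, 73.9 and 75.04 CPM in HT-29 and had 1 count over LAD2 alone, a ratio of 4656 with a 95% counting interval of 835 to 183936. The plakophilins PKP3 (ENSG00000184363, chromosome 11, 392614 to 404908) and PKP2 (ENSG00000057294, chromosome 12, 32790745 to 32896840) had 0 counts in LAD2 alone and were at least 4606-fold and 1500.0-fold higher in HT-29, at means of 216 ± 6.08 and 70.4 ± 2.87 CPM (SD, n = 3 each). Desmoplakin, DSP (ENSG00000096696, chromosome 6, 7541575 to 7586717), had 0 counts in LAD2 alone and was at least 3584-fold higher, at 168 ± 0.83 CPM (SD, n = 3). Periplakin, PPL (ENSG00000118898, chromosome 16, 4882507 to 4960741), had 7 counts over LAD2 alone and was at 153 ± 5.41 CPM in HT-29 (SD, n = 3), a ratio of 1393 with a counting interval of 676 to 3465.

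The 3 members that LAD2 expressed encode proteins of the inner face of junctions, not cadherins. This does not set them apart, since PKP2, PKP3, DSP and PPL, which LAD2 alone lacked or nearly lacked, encode such proteins too. Envoplakin, EVPL (ENSG00000167880, chromosome 17, 76004502 to 76027452), was higher in the mast cell line. It was at 299.7, 308 and 271 CPM in LAD2 alone and at 51.7, 52.7 and 49.97 CPM in HT-29 alone, so every LAD2 library lay above every HT-29 library, 5.7-fold by the means (log2 fold change -2.49 for HT-29 over LAD2, SE 0.044, edgeR adjusted p = 6.4e-39). Its partner in the cornified envelope, PPL, was nearly absent there. Plakoglobin, JUP (ENSG00000173801, chromosome 17, 41754604 to 41786931), which serves both kinds of junction and is a close relative of beta-catenin, was at 609, 574 and 569 CPM in LAD2 alone and at 474, 467 and 475 CPM in HT-29 alone. The lines did not overlap for JUP, and the log2 fold change of HT-29 over LAD2 was -0.29 (SE 0.0381, edgeR adjusted p = 2.44e-09). p120 catenin, CTNND1 (ENSG00000198561, chromosome 11, 57753243 to 57819546), was at 124, 121 and 118 CPM in LAD2 alone and at 577, 577 and 594 CPM in HT-29 alone (log2 fold change 2.28, SE 0.039, adjusted p = 1.95e-39).

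All 10 members were tested between the lines, 8 were higher and 2, JUP and EVPL, lower in HT-29. The lines differed in most of the transcriptome: 92.4% of 15830 tested genes were called, 44.9% higher and 47.5% lower, so the count of members called is little above that background. The 7 members that were absent or nearly absent from LAD2 entered the test through HT-29 alone, so their passing it adds nothing. With those at 0 set to their bound, the median log2 ratio of CPM over the 10 members was 11.2. Over all tested genes the median edgeR log2 fold change, a different measure, was -0.07. As a check of the labels, the 21 epithelial markers summed to 14018 to 14598 CPM in HT-29 alone and the 20 mast cell markers to 438 to 449 CPM. CD63, also singled out after the values were seen, made up 356 to 368 CPM of the mast cell sum there. Of the 20 mast cell markers 1 was higher in HT-29, ALOX5, at 19.6 to 21.2 CPM against 0 to 0.144 CPM in LAD2 alone. In LAD2 alone the epithelial markers summed to 227 to 250.1 CPM, of which KRT19, singled out after the values were seen, made up 224 to 248 CPM, and the mast cell markers to 23766 to 24040 CPM.

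**Figure D1:**
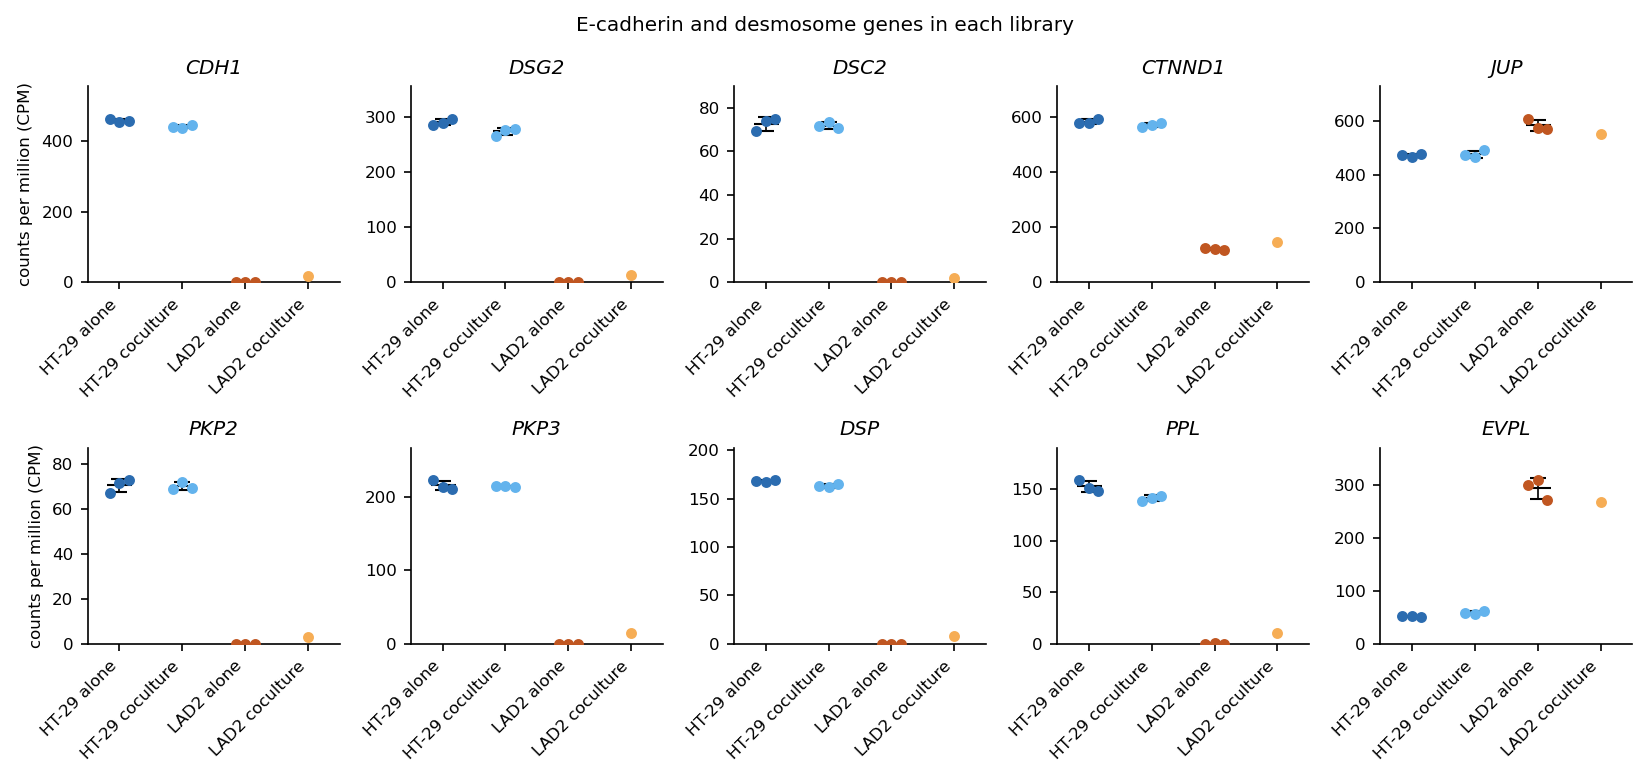
Level of each of the 10 genes in every distinct library, in CPM on a linear axis from 0. Points are libraries, bars are the mean and SD of the 3 libraries of a group, and LAD2 coculture is 1 library. CDH1, DSG2, DSC2, PKP2, PKP3, DSP and PPL lie near 0 in LAD2 alone, whereas EVPL and JUP lie above HT-29 there.

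Levels of different genes were compared per kilobase of exon, as CPM per kb. In HT-29 alone the order was JUP at 95.5 ± 0.837, CDH1 at 74.1 ± 0.752, CTNND1 at 66.2 ± 1.11, PKP3 at 57.1 ± 1.6 and DSG2 at 47 ± 0.94 CPM per kb (SD, n = 3 each). A lower tier held PPL at 19.9 ± 0.703, DSP at 16.7 ± 0.0822, PKP2 at 10.0 ± 0.408, EVPL at 6.85 ± 0.185 and DSC2 at 5.82 ± 0.249 CPM per kb (SD, n = 3 each). The libraries of neighbours in this order did not overlap at any step. Among the desmosomal cadherins DSG2 lay well above DSC2, and among the plakophilins PKP3 lay well above PKP2, whereas the plakins PPL and DSP lay close together. In LAD2 alone the order was JUP at 118 ± 4.33, EVPL at 39 ± 2.59 and CTNND1 at 13.7 ± 0.34 CPM per kb (SD, n = 3 each), and the other 7 members lay at or below 0.0146 CPM per kb, where they could not be ranked. Lengths are of all annotated exons of a gene joined, 3.79 kb for PKP3 to 12.5 kb for DSC2, so a gene whose long exons are seldom used is placed too low.

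**Figure D2:**
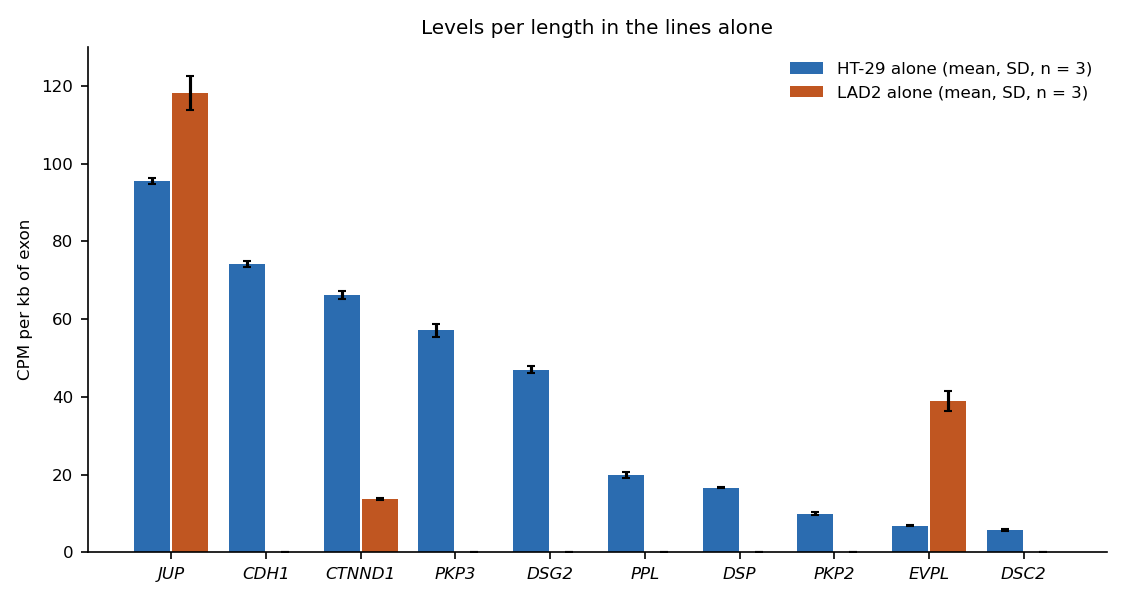
Mean level per kilobase of exon, in CPM per kb, of the 10 genes in HT-29 alone and LAD2 alone, with the SD of 3 libraries. JUP is the highest member in both lines, at 95.5 and 118 CPM per kb, and EVPL is the next in LAD2.

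Whether cancer cells that had met mast cells kept their junction genes was read from the HT-29 libraries with and without coculture. The 10 members changed little, with fitted changes from -8.36% for PPL to 10.6% for EVPL. In this comparison 8.76% of 14070 tested genes were called, 5.83% higher and 2.94% lower. Of the 10 members 3 fell, CDH1, DSG2 and PPL, 1 rose, EVPL, and 6 did not pass. The median log2 fold change over the members was -0.03, against 0.0011 over all tested genes. The fold change was below 0 in 9 members, a count whose share over all tested genes was not taken. Against the mixture with LAD2 RNA given below, JUP, PKP2, PKP3 and EVPL stood above it, at 1.007, 1.005, 1.003 and 1.07 times, and the other 6 below it.

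CDH1 was at 463, 455 and 455 CPM alone and at 441, 438 and 445 CPM in coculture. Every coculture library lay below every library alone, with a log2 fold change of -0.07 (SE 0.0199, edgeR adjusted p = 0.0244), a change of -4.52% with a 95% interval of -7.14% to -1.82%. The call was lost without HT-29 alone replicate 1 (adjusted p = 0.0834) and without HT-29 coculture replicate 1 or 2 (adjusted p = 0.0831 and 0.104), with a range over the 12 alternatives of 0.00769 to 0.252. It was also lost in the fit of all 10 libraries and with the share of LAD2 RNA given below subtracted. DSG2 was at 287, 289 and 298 CPM alone and at 267, 278 and 279 CPM in coculture. Its groups did not overlap, and it changed by -6.63% (interval -9.4% to -3.78%; log2 fold change -0.10, SE 0.0215, edgeR adjusted p = 0.000999). PPL was at 159, 151 and 148 CPM alone and at 139, 142 and 144 CPM in coculture. This was the deepest fall of the 10, -8.36% (interval -11.7% to -4.93%; log2 fold change -0.13, SE 0.0262, edgeR adjusted p = 0.000574). DSG2 and PPL passed in all 12 alternatives, which all use these same libraries. The common spread between libraries of a group, beyond counting error, was 1.7% in the main fit. The labels do not say that samples are separate cultures, so the alternatives cannot show whether these falls would recur in others.

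EVPL, the relative of PPL, moved the other way. It was at 51.7, 52.7 and 49.97 CPM alone and at 56.9, 55.7 and 61.0 CPM in coculture, a change of 10.6% (interval 4.82% to 16.7%; log2 fold change 0.15, SE 0.0382, edgeR adjusted p = 0.00877). The call was lost without HT-29 coculture replicate 3 (adjusted p = 0.0857) and with DESeq2 (adjusted p = 0.12), and the adjusted p ranged from 0.00603 to 0.300 over the alternatives. DSP also had groups that did not overlap, at 168, 167 and 169 CPM alone and 163, 162 and 165 CPM in coculture, and it did not pass (log2 fold change -0.06, SE 0.0231, adjusted p = 0.142). In all, 5 of the 10 members had groups that did not overlap, which was so in 23.4% of the 14070 tested genes.

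None of the 4 armadillo proteins passed. JUP was at 474, 467 and 475 CPM alone and at 472, 466 and 492 CPM in coculture (change of -0.0306%, interval -2.89% to 2.91%). CTNND1 was at 577, 577 and 594 CPM alone and at 565, 573 and 579 CPM in coculture (change of -2.67%, interval -5.31% to 0.049%). PKP3 was at 223, 214 and 212 CPM alone and at 215, 215 and 214 CPM in coculture, and PKP2 at 67.2, 71.4 and 72.7 CPM alone and at 68.8, 71.9 and 69.1 CPM in coculture. DSC2 was at 69.2, 73.9 and 75.04 CPM alone and at 71.7, 73.4 and 70.5 CPM in coculture. For these 5 members the libraries of the groups overlapped. Over the 6 members that did not pass, the intervals reached from -6.87% to 3.14%, which is the size of change these libraries leave possible.

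RNA of LAD2 was present in the HT-29 coculture libraries. Over 292 genes at 50 CPM or more in LAD2 alone and at most 0.5 CPM in HT-29 alone, the coculture libraries held 1.04%, 1.09% and 1.19% of the LAD2 level, and the mast cell markers summed to 696 to 714 CPM, with 0 of 20 at 0 counts. In bulk RNA, LAD2 cells carried over and free LAD2 RNA cannot be told apart, and neither can fewer cells of a type and less RNA per cell. A mixture of the lines alone at the mean share of 1.1% would hold 452.8 CPM of CDH1, and the coculture mean was 0.974 times that. The same ratio was 0.953 for DSG2, 0.936 for PPL, 0.982 for DSP and 1.07 for EVPL, and from 0.991 to 1.01 for the other 5 members. With the share subtracted, DSG2 and PPL still passed (log2 fold change -0.08 and -0.11, edgeR adjusted p = 0.0315 and 0.0144), and CDH1 and EVPL did not (log2 fold change -0.05 and 0.08, adjusted p = 0.247 and 0.300).

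**Figure D3:**
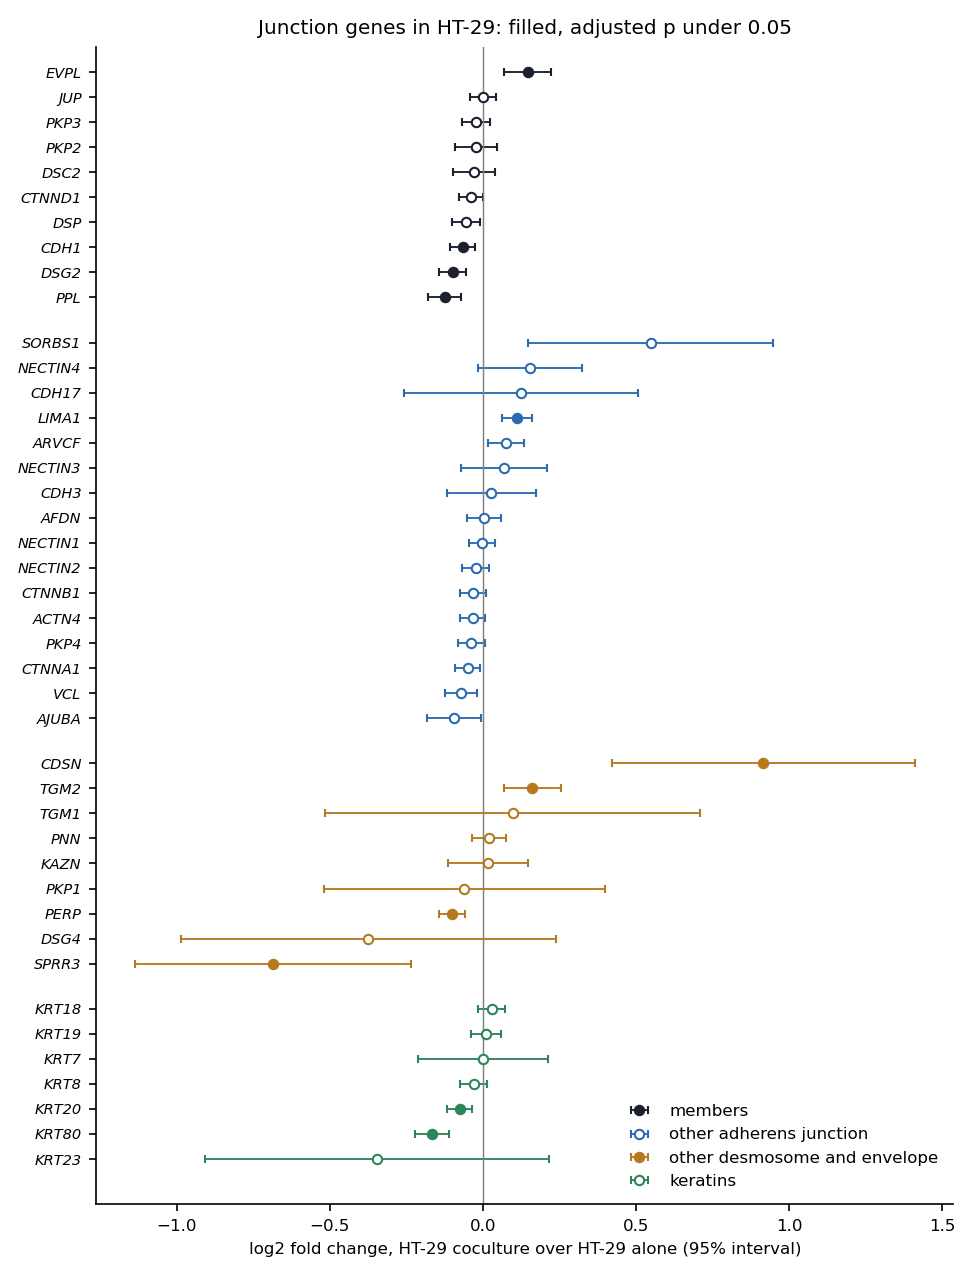
Log2 fold change of HT-29 coculture over HT-29 alone with its 95% interval, for the 10 members and for the tested genes of 3 lists, other adherens junction genes, other desmosome and cornified envelope genes, and keratins. Filled points passed at an adjusted p under 0.05; CDH1, DSG2 and PPL lie below 0 and EVPL above it.

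Other genes of the junctions were read from fixed lists. Of 16 tested adherens junction genes, 1 was higher and 0 lower (median log2 fold change -0.0014). The catenins that carry E-cadherin did not pass: CTNNA1, which encodes alpha-catenin, held 572 ± 9.72 CPM without LAD2 and 558 ± 10.5 CPM after coculture (adjusted p = 0.12), and CTNNB1, which encodes beta-catenin, at 256 ± 2.48 and 253 ± 4.94 CPM (SD, n = 3 each; edgeR adjusted p = 0.416). The gene that rose was LIMA1, an actin-bundling protein that ties catenins to actin, from 175 ± 1.76 to 191 ± 6.43 CPM (SD, n = 3 each; log2 fold change 0.11, edgeR adjusted p = 0.00109). Of 9 tested desmosome and cornified envelope genes, 2 were higher and 2 lower (median 0.02). PERP, a membrane protein of desmosomes, fell from 428 ± 12 to 403 ± 1.98 CPM (SD, n = 3 each; log2 fold change -0.10, edgeR adjusted p = 0.000689). TGM2, a transglutaminase, rose with a log2 fold change of 0.16 (adjusted p = 0.0195), and SPRR3, an envelope precursor with 1.6 ± 0.23 CPM before and 1.01 ± 0.189 CPM after coculture (SD, n = 3 each), fell by 0.69 (adjusted p = 0.0455). CDSN, which encodes corneodesmosin and lies opposite PSORS1C1, rose by 0.92 (adjusted p = 0.00986), to 1.55 CPM, 0.900 times the mixture, against 87.7 CPM in LAD2 alone.

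Among 7 keratins, the filaments that desmosomes hold, 2 were lower and 0 higher (median -0.03). KRT80 fell from 176 ± 6.89 to 157 ± 5.91 CPM (SD, n = 3 each; log2 fold change -0.17, edgeR adjusted p = 1.31e-05) and KRT20 from 549 ± 7.98 to 525 ± 5.08 CPM (SD, n = 3 each; adjusted p = 0.00802). The E-cadherin repressors had 5 tested genes, of which 1 was higher and 0 lower (median 0.04). That gene was ZEB2, at 3.53 ± 0.227 CPM in coculture and 0.996 times the mixture, while SNAI1 held 3.1 ± 0.329 CPM without LAD2 and 3.11 ± 0.131 CPM after coculture (SD, n = 3 each; edgeR adjusted p = 0.943). Of 16 genes listed as activators of epithelial junction genes, 2 were higher and 1 lower (median 0.0026). That list also holds ESRP1 and ESRP2, which encode splicing regulators. ELF3 rose with a log2 fold change of 0.23 (adjusted p = 2.84e-05) and FOXA1 with a value of 0.12 (adjusted p = 0.00566), whereas KLF4 fell, at -0.16 (adjusted p = 0.0258). Of 11 genes of cadherin shedding and turnover, 1 was lower (median -0.0089), the membrane protease ADAM9, by 0.09 (adjusted p = 0.0114).

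Whether mast cells that had met cancer cells carried junction transcripts was read from the LAD2 libraries in the same way. The 7 members absent or nearly absent from LAD2 alone were all present in the coculture library, at 2.8% to 6.78% of their level in HT-29. CDH1 was at 0, 0 and 0 CPM alone and at 18.1 CPM (458 counts) in coculture, at least 385-fold higher. DSG2 reached 12.5 CPM from 0 counts, at least 265-fold higher, PKP3 14.7 CPM, at least 312-fold, DSP 7.57 CPM, at least 161-fold, and PKP2 2.84 CPM, at least 60.5-fold. PPL went from 7 counts to 254, or 10.0 CPM, a ratio of 91.4 (counting interval 43.7 to 230), and DSC2 from 1 count to 52, or 2.05 CPM, a ratio of 131 (interval 22.5 to 5272). Of the 10 members 8 were called higher and 0 lower, with edgeR adjusted p from 1.01e-24 for CDH1 to 0.00152 for CTNND1, against 20.8% of 15821 tested genes called, 14.1% higher and 6.75% lower. With DESeq2 the call of PPL was lost (adjusted p = 0.0803). These 7 members entered the test through the coculture library alone, so their passing it adds nothing, and that library is assumed to vary like LAD2 alone. With members at 0 set to their bound, the median log2 ratio of CPM over the 10 members was 6.77. Over all tested genes the median edgeR log2 fold change, a different measure, was 0.0014.

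RNA of HT-29 was present in this library. Over 297 genes at 50 CPM or more in HT-29 alone and at most 0.5 CPM in LAD2 alone, members and listed genes left out, the median rise was 5.25% of the HT-29 level, with quartiles of 4.39% and 6.09%. The 21 epithelial markers summed to 1149 CPM, with 0 of 21 at 0 counts, against 10 to 15 of 21 at 0 in the LAD2 alone libraries. The 7 members had a median rise of 4.28% and 15 epithelial markers that LAD2 alone lacked had a median of 5.97%. CDH1 stood at 3.94%, DSG2 at 4.28%, PKP2 at 4.03% and DSP at 4.5% of the HT-29 level, each between the 17.2 and 27.3 percentiles of the 297 genes. PKP3 at 6.78% and PPL at 6.48% stood at the 88.2 and 82.8 percentiles. DSC2, at 2.8%, stood at the 1.68 percentile. The counting interval of the DSC2 level, 1.53 to 2.69 CPM, lay below the 3.83 CPM that a mixture at 5.25% would hold. By transcript length, the median rise was 5.5% in the shortest 99 of the 297 genes, 5.33% in the middle 99 and 4.76% in the longest 99, with Spearman's rho of -0.25 across genes, which share 1 library. The 7 members did not follow length throughout (rho -0.36): DSC2, with the longest exons at 12.5 kb, had the lowest rise and PKP3, with the shortest at 3.79 kb, the highest, but PPL had 7.69 kb and a high rise. DSP had 10.1 kb, PKP2 7.04 kb, DSG2 6.19 kb and CDH1 6.18 kb. The part of length in these values was not tested.

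**Figure D4:**
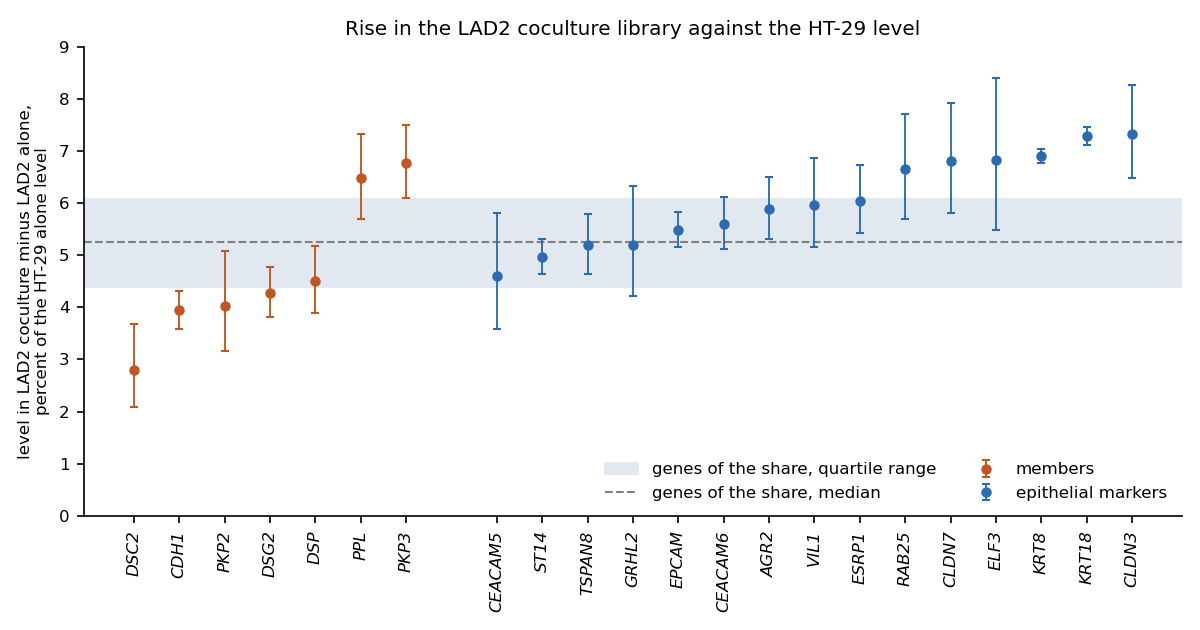
Level in LAD2 coculture minus LAD2 alone, as a percent of the HT-29 alone level, for the 7 members and 15 epithelial markers that LAD2 alone lacked. Bars are 95% counting intervals of the 1 coculture library, and the band and dashed line are the quartiles and median of 297 genes, 4.39% to 6.09% and 5.25%. DSC2 lies lowest at 2.8%, and PKP3 and PPL lie above the band.

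Members that LAD2 itself expressed moved little. CTNND1 was at 124, 121 and 118 CPM in LAD2 alone and at 147 CPM in coculture, above all 3 libraries (log2 fold change 0.27, SE 0.0648, edgeR adjusted p = 0.00152). A mixture at the 5.25% share would hold 145 CPM, and the observed level was 1.01 times that. With the share subtracted the log2 fold change was 0.02 (adjusted p = 0.907). JUP was at 609, 574 and 569 CPM alone and at 552 CPM in coculture, below all 3 libraries, and did not pass (log2 fold change -0.09, interval -0.22 to 0.04, adjusted p = 0.366). EVPL was at 299.7, 308 and 271 CPM alone and at 267 CPM in coculture, also below all 3, and did not pass (log2 fold change -0.14, interval -0.28 to -0.0071, adjusted p = 0.14). Without LAD2 alone replicate 3, EVPL passed (log2 fold change -0.19, adjusted p = 0.000519). Against the mixture JUP stood at 0.954 and EVPL at 0.953 times.

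**Figure D5:**
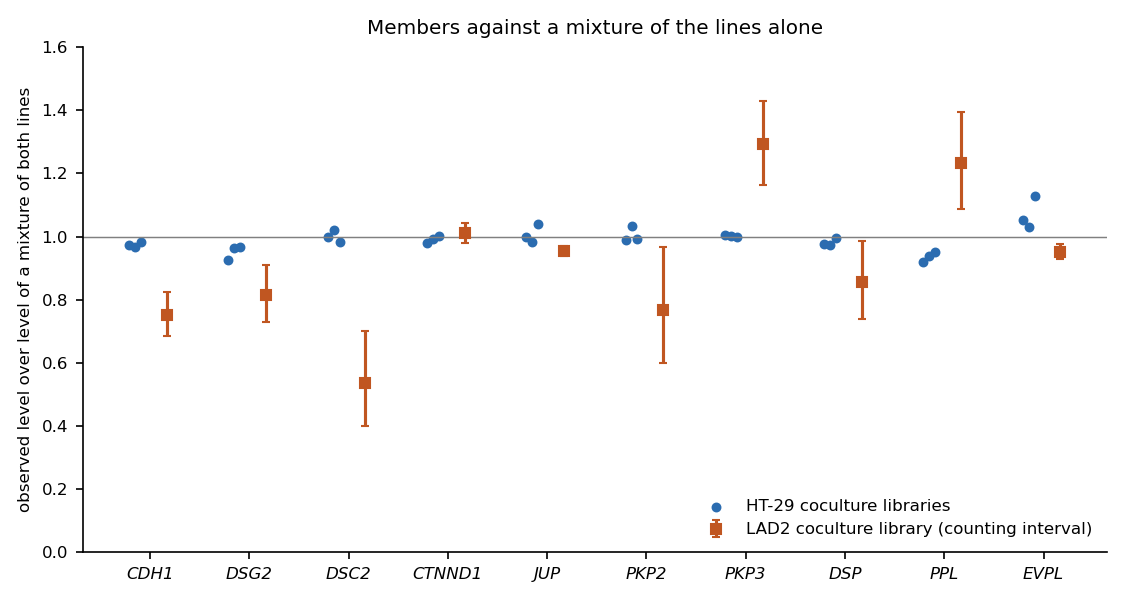
Observed level over the level of a mixture of the lines alone at the measured shares of 1.1% and 5.25%, for the 10 members, on a linear axis from 0. Circles are the 3 HT-29 coculture libraries and squares the LAD2 coculture library with its 95% counting interval; the HT-29 means lie between 0.936 for PPL and 1.07 for EVPL, and the LAD2 values between 0.535 for DSC2 and 1.29 for PKP3.

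Of the 7 members that LAD2 alone lacked, PKP3 and PPL stood above the mixture, at 1.29 and 1.23 times, and CDH1, DSG2, DSC2, PKP2 and DSP below it. Subtracting the median share leaves a gene near 0 in LAD2 alone high or too low to test by its side of that median alone, so no test of these 7 was read from it. Other junction genes of LAD2 coculture were read beside the same mixture. Of 15 tested adherens junction genes, 6 were higher and 2 lower (median 0.18), among them NECTIN1, NECTIN2 and CDH3, adhesion molecules of the cell surface, at 0.889, 1.01 and 1.24 times the mixture, and PKP4 at 1.15 times. CTNNA1 was at 208 CPM against 182 ± 5.68 CPM alone (SD, n = 3; edgeR adjusted p = 0.0354), 1.03 times the mixture, and CTNNB1 at 256 CPM against 255 ± 3.4 CPM (SD, n = 3; adjusted p = 0.982). Of 6 tested desmosome and envelope genes, 3 were higher and 2 lower (median 0.11). PERP was at 24.2 CPM from 0 counts, 1.07 times the mixture, TGM2 at 1.54 times, and PNN, which encodes pinin, had a log2 fold change of -0.42 (adjusted p = 1.96e-05). CDSN was at 87.7 ± 1.7 CPM in LAD2 alone (SD, n = 3) and 76.2 CPM in coculture (adjusted p = 0.0253). Of 6 tested keratins 4 were higher, KRT8, KRT18, KRT20 and KRT80, at 1.32, 1.39, 1.43 and 1.05 times the mixture. From the activator list, the splicing regulator ESRP1 stood at 1.15 times the mixture, EHF at 0.975 and KLF5 at 0.759 times. Of 11 tested shedding genes 6 were higher and 0 lower, with the proteases ST14, MMP7 and ADAM15 at 0.947, 1.41 and 1.03 times. Among the repressors SNAI1 was at 0.591 CPM in coculture against 0.125 ± 0.0244 CPM in LAD2 alone (SD, n = 3), 2.11 times the mixture. That level rests on 15 counts in 1 library, with a counting interval of 0.331 to 0.975 CPM, and LAD2 alone held 8 counts in all. ZEB2 was at 290 CPM against 318 ± 3.92 CPM (SD, n = 3) and did not pass (adjusted p = 0.108).

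LAD2 also carried a receptor of E-cadherin. KLRG1, a lectin-like inhibitory receptor of lymphocytes whose ligand is E-cadherin, was at 63.7, 67.1 and 67.6 CPM in LAD2 alone and at 72.6 CPM in coculture, where it did not pass (log2 fold change 0.12, SE 0.0713, edgeR adjusted p = 0.254). In HT-29 its level was 0.0873 ± 0.0871 CPM without LAD2 and 0.881 ± 0.0878 CPM after coculture (SD, n = 3 each; edgeR adjusted p = 9.16e-07), a rise of 1.2% of the LAD2 level and 1.08 times the mixture. Of the 3 receptor genes tested, 1 was higher and 0 lower in HT-29 coculture, and 0 passed in LAD2 coculture.

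Whether the lines responded differently was tested with an interaction term in 1 fit of the 10 libraries, in which a positive value is a larger response in LAD2. Of the 10 members 8 were called, all higher in LAD2 and 0 lower, against 40.8% of 17435 tested genes called, 33.7% higher and 7.11% lower. This difference depends on how lines so unlike are scaled: the median of all genes moved between -0.12 and 0.18 over the settings, so the members that both lines expressed are given relative to it. CTNND1, 1 of the 8 called, stood 0.31 above the median (0.29 to 0.36 over 13 settings). EVPL stood at -0.29 (-0.34 to -0.24) and JUP at -0.09 (-0.11 to -0.04), and neither was called in the main fit. No test was run against the median. The unshifted fitted values, which the test sets against no difference, were 0.48 for CTNND1, -0.12 for EVPL and 0.08 for JUP. Over 12 alternatives they ran from 0.20 to 0.50, from -0.39 to -0.08 and from -0.19 to 0.12. The sign for JUP turned without HT-29 alone replicate 1 or 3 or HT-29 coculture replicate 3, and LAD2 coculture is 1 library. The other 7 called members are those absent or nearly absent from LAD2 alone, which entered the test through the groups where they are high, so their passing it adds nothing.

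Over the means of the 4 groups, the genes whose pattern was most like CDH1 among 14012 ranked genes were ARHGAP23, ABCC3, BMP4, LAD1 and ITGA6. Likeness is the distance between centred log2(CPM + 0.5) values, and it was 0.16, 0.2, 0.21, 0.31 and 0.39 for these genes. With the offset of 0.5 CPM, a gene near 0 in LAD2 alone is ranked largely by how near its HT-29 level is to that of CDH1. PKP2 thus ranked low at 70.4 CPM in HT-29 alone, against 458 CPM for CDH1. Their rises in LAD2 coculture were close, 4.03% and 3.94% of the HT-29 level. Their levels ran from 407 to 565 CPM in HT-29 alone and from 20 to 28.4 CPM in LAD2 coculture. Among the members, DSG2 ranked 18, PKP3 55 and DSP 73, PPL 120, PKP2 239 and DSC2 272. CTNND1, JUP and EVPL ranked 1862, 9059 and 12920.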

How the data were processed

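RNA sequencing was made in HT-29 and LAD2 cells with the NEB NextUltra kit, per the labels' protocols. The authors deposited raw counts per Ensembl gene for 12 columns. The submitters' processing notes name STAR 2.7.10a, FastQC 0.11.9, DESeq2 3.24.0 and the build hg38. Not given in the sources used here are the program that counted reads, its annotation and its strand setting. Without a strand setting, reads of antisense genes cannot be told apart. The genes that share exons with CDH1, DSG2 and CTNND1 had at most 3 counts in a library. As the counting rule is not known, this cannot show whether reads in shared exons were gained or dropped. PSORS1C1, which lies opposite CDSN, had 39 to 251 counts in a library.

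All 58721 IDs matched GENCODE 29, which gave symbols, positions and exon lengths. The 3 LAD2 coculture columns were identical and counted as 1 library. Libraries held 17229788 to 34142465 counts, where 3 counts, the limit used for a gene at 0, are 0.0879 to 0.174 CPM per library. CPM is the counts of a gene scaled by the total of its library. Tests used edgeR 4.0.16 in R 4.3.3, the quasi-likelihood test with TMM scaling, its default filter on low counts, and Benjamini-Hochberg adjustment over all tested genes, called at 0.05. Each comparison was fitted on its own groups, and the response difference on all 10 libraries. The labels do not say that samples are separate cultures, so p-values measure the spread between these samples, which may be technical. The share of the other line is the median rise over genes with 50 CPM or more there and no more than 0.5 CPM in the receiving line, and the subtraction removed that share of the other line's mean. Intervals are at 95%, and those of single libraries cover counting error only. Promoters are from RefSeq, GRCh38.p14.

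Alternatives were another scaling, no filter, DESeq2 1.42.0, a fit of all 10 libraries, leaving out each replicate, the replicate number as a block and the subtraction. The scripts were tested on simulated data. All 10 members are named, with up to 4 called genes of smallest p per list and comparison, CTNNA1, CTNNB1, SNAI1 and ZEB2 in any case, and the 5 genes most like CDH1. The members and lists were chosen with earlier results of these data known.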

Additional observations from a re-analysis of the deposited data

Results flagged for a closer look

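The interaction, the response in LAD2 minus that in HT-29 on the log2 scale, was called for 8 members. For 7 of them, which LAD2 alone lacked or nearly lacked, passing adds nothing, since they entered the test through the groups where they are high and LAD2 coculture is 1 library. The fitted difference was 11.92 for CDH1, 11.41 for DSG2, 11.57 for PKP3, 10.65 for DSP and 9.21 for PKP2, all with 0 counts in LAD2 alone, where a fitted value depends on the prior count and is no bound. It was 6.80 for DSC2 and 6.73 for PPL, which had 1 and 7 counts in LAD2 alone. It was 0.48 for CTNND1 (SE 0.0582, edgeR adjusted p = 5.37e-10), which both lines expressed, and 0.20 with an adjusted p of 0.108 without the filter on low counts. The LAD2 coculture library held a median of 5.25% of the HT-29 level of genes that LAD2 lacks, and CTNND1 in it was 1.01 times the mixture at that share.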

How the results depend on the processing

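All 10 calls between the lines alone held under all 11 alternatives. For the members absent or nearly absent from LAD2 alone, which entered that test through HT-29, this adds nothing. In HT-29 coculture, 820 genes were higher and 413 lower, with 1 member higher and 3 lower; DESeq2 gave 177 lower and 0 members higher, the fit of all 10 libraries 151 lower, and subtraction of the LAD2 share 236 higher, 198 lower and 0 members higher. Leaving out 1 replicate gave 269 to 415 genes lower and 0 to 1 member higher; the lowest was without HT-29 alone replicate 2, and the member was lost without HT-29 coculture replicate 3. In LAD2 coculture, 2230 genes were higher and 1068 lower, with 8 and 0 members; DESeq2 gave 1391 and 400, the fit of all 10 libraries 6998 and 446, and subtraction 902 and 682, with 2 members higher, a count that the subtraction itself fixes for members absent from LAD2 alone. Leaving out a replicate gave 674 (without LAD2 alone replicate 1) to 1674 (without replicate 3) genes lower and 0 to 1 member lower. The single LAD2 coculture library could not be left out. For the response difference, 5877 genes were higher and 1240 lower, with 8 and 0 members; RLE scaling gave 3343 higher, no filter 1744 higher and 2109 lower, and DESeq2 2814 higher, each with 1 member lower. Leaving out a replicate gave 1954 to 6359 higher, 1065 to 2962 lower and 0 to 2 members lower, the widest shifts being without HT-29 alone replicate 1 or 3 or HT-29 coculture replicate 3. The HT-29 share in LAD2 coculture was 5.00% at a minimum of 200 CPM.

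Some directions reversed, and the cause was not tested. With the share subtracted, CDSN in HT-29 was at -0.47, and in LAD2 KLF5 was at -8.79 and NECTIN1 at -0.56. The subtraction allowed no negative count, and KLF5, at 17.6 CPM in LAD2 coculture, stood at 0.759 times the mixture. In LAD2, CTNNB1 was at 0.17 in the fit of all 10 libraries, where the median shift of all genes from the main fit was 0.17. In the response difference without a filter, CTNNB1 was at -0.069 and TCF3 at -0.059, where the median shift of all genes was -0.27. Leaving out a replicate moved the response difference from -0.071 (without HT-29 coculture replicate 3) to 0.21 for CTNNB1. For JUP it moved from -0.19 (without HT-29 alone replicate 1) to 0.12. For TCF3 it moved from -0.061 (without HT-29 coculture replicate 3) to 0.23. The sign also turned without HT-29 alone replicate 3. The median shift of all genes was -0.261 and -0.260 without HT-29 alone replicate 1 and 3, and -0.281 without HT-29 coculture replicate 3.

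With the replicate number as a block, HT-29 coculture had 876 genes higher and 522 lower, with 1 and 3 members, and the lines alone 7064 and 7490, with 8 and 2 members. Deviations of same-numbered HT-29 libraries correlated at 0.00775, 0.00822 and 0.0329, so the numbers were not taken as pairs.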
